A study of Mus musculus with 12 samples.

Results

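HSP90 is described here through 10 genes of splenic CD4+ T cells: its cytosolic forms Hsp90aa1 and Hsp90ab1, and the co-chaperones Stip1, Ahsa1, Ahsa2, Fkbp4, Cdc37, Ptges3, Chordc1 and Ppid. All 10 were found by symbol among the 55414 gene records of the count table, and all 10 passed the filter on low counts in every comparison. The genes were chosen from a result of these data, the difference in heat shock genes between the groups on day 0, so that difference is described without a test. Tests of these genes are given for the groups on day 2, from other libraries, and for the ratio of Hsp90aa1 to Hsp90ab1. The change in level between the days uses the day 0 libraries and is described without a p-value. The cells came from male wild-type BALB/c mice aged 18 weeks. In the ligature-induced periodontitis (LIP) group, silk was tied around the maxillary second molars on both sides, and in the control (CTL) group the mice were anaesthetised without a ligature. CD4+ T cells were isolated from the spleen by negative selection. Those of day 0 were taken without culture, and those of day 2 were stimulated in culture, per the labels with antibodies to TCRbeta and CD28, each at 1 µg/mL, and with IL-2 at 10 ng/mL. The study's methods give other concentrations of IL-2 and anti-TCRbeta. For 2 CTL libraries (93 and 97) and 2 LIP libraries (96 and 97) of day 2, the treatment label names anti-CD29 or anti-CD30 in place of anti-CD28. Each of the 4 groups had 3 RNA sequencing libraries: CTL 88, 89 and 94 and LIP 92, 93 and 94 on day 0, and CTL 92, 93 and 97 and LIP 90, 96 and 97 on day 2. No source states separate cultures, so p-values measure the spread between these libraries.

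HSP90 is an abundant chaperone that works as a dimer, closing around partly folded client proteins as it binds and splits ATP. Clients are handed over from HSP70 by the adaptor encoded by Stip1, kinases are brought by the product of Cdc37, and the products of Ahsa1 and Ptges3 act on the ATP cycle, one stimulating it and the other holding the closed state. In T cells, kinases of the antigen receptor pathway such as LCK are among the clients, and heat shock factor 1 drives several genes of the system under stress. Hsp90aa1 is known as the more inducible cytosolic form and Hsp90ab1 as the more constant one.

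The libraries held 6249018 to 12866718 assigned reads. The 8 CD4+ T cell markers summed to 2480 to 2840 CPM (counts scaled to a library's total, with TMM factors) on day 0 and to 4000 to 4400 on day 2, while the 2 CD8 markers summed to 4.42 to 13.2 CPM, 7 B cell markers to 0.894 to 33.9 and 9 myeloid markers to 2.77 to 16.4, with S100a8 and S100a9 at 0 in every library. On the first principal component of each day, CTL 94 of day 0 and LIP 90 of day 2 stood apart from their groups. That component held 39% of the variance on day 0 and 48.1% on day 2. On the first principal component of day 0, CTL 94 was at 13.4, within the LIP range of 7.78 to 18.4 and away from CTL 88 and 89 at -18.6 and -37. On that of day 2, LIP 90 was at -8.11, with CTL at -34.9 to -18.1 and LIP 96 and 97 at 44.9 and 39.4. In bulk RNA, fewer cells of a type and less RNA per cell cannot be told apart.

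Promoter sequence is shown as background, since heat shock factors bind repeated GAA units. No binding was measured, and a part of these factors in the day 0 values was not tested. RefSeq windows on GRCm38.p6, an older build than the GRCm39 of the counts, were found for 7 of the 10 genes. Hsp90aa1, Hsp90ab1 and Ppid had no window and were not searched. The windows span 250 bases before to 50 after the start. They were searched on both strands for GAANNTTC and TTCNNGAA, each its own reverse complement, which can overlap each other. Of all 32851 windows, 4946 (15.1%) held at least 1 match. Among the genes, 3 windows held a match and 4 (Stip1, Ahsa1, Ahsa2 and Ptges3) held none. The Chordc1 window had 5 matches, starting at bases -4, 2, 7, 12 and 34 from the start, a number reached by 3 windows in all (0.00913%). The first 4 overlap into one run of alternating units. The windows with a match are printed 5′ to 3′ up to base 30 after the start, with the matched letters in capitals, beside that of Stip1, the gene with the largest day 0 difference. They are chr9:18292017-18292296 (plus strand) for Chordc1, chr6:128438627-128438906 (minus strand) for Fkbp4, chr9:21149905-21150184 (minus strand) for Cdc37 and chr19:7039997-7040276 (minus strand) for Stip1.
Chordc1: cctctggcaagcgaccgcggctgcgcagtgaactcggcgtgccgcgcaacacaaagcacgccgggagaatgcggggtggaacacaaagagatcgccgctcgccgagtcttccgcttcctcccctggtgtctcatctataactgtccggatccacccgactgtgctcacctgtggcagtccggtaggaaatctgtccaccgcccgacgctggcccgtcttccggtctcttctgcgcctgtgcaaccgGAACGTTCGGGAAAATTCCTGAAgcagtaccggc
Fkbp4: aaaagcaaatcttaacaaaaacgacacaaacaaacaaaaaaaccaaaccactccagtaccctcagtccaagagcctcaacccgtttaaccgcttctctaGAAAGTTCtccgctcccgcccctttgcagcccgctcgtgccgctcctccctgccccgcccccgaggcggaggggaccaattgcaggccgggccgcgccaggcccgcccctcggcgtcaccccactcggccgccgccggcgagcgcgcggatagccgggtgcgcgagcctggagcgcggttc
Cdc37: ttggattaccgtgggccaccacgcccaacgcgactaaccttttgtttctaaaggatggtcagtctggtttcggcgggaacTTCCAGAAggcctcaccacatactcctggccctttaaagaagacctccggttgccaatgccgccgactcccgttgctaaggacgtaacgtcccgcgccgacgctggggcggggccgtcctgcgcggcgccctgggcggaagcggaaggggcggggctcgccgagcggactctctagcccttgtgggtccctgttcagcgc
Stip1: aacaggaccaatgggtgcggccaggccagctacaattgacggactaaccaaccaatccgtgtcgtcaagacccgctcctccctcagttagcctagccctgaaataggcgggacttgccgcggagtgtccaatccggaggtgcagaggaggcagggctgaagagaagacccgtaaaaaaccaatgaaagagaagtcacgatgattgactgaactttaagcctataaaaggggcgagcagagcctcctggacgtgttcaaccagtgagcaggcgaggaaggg
On day 0 the LIP mean was 61.0% of the CTL mean for Chordc1, 57.6% for Fkbp4 (match at base -151), 100.3% for Cdc37 (match at base -170) and 39.2% for Stip1, values on which the genes were chosen. A match is a run of letters in this window and no evidence that a factor was bound.

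**Figure D1:**
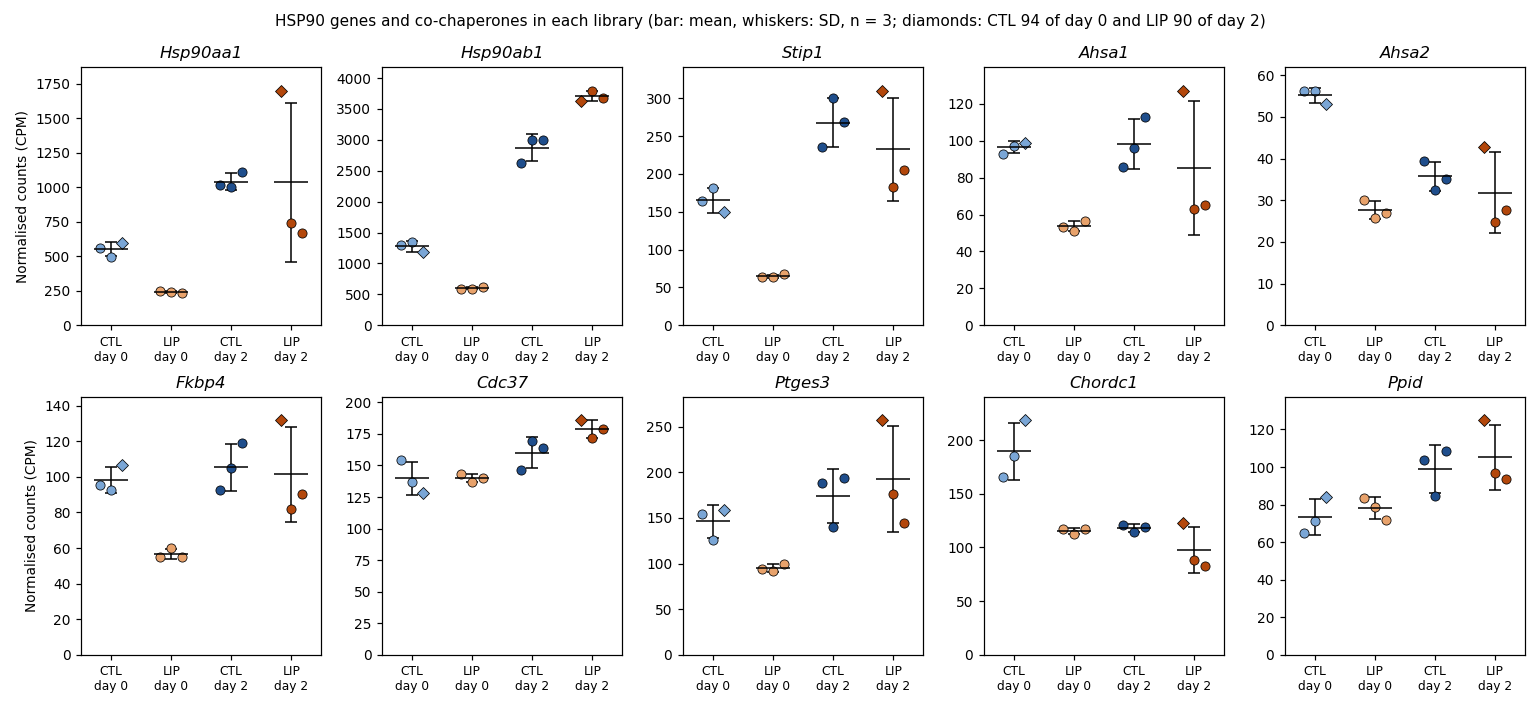
Normalised counts in CPM (vertical axes, each from 0) of the 10 genes in each of the 12 libraries, with the mean and SD of 3 libraries per group and CTL 94 of day 0 and LIP 90 of day 2 as diamonds. On day 0 the LIP points lie below the CTL points in 8 genes and among them in Cdc37 and Ppid, and on day 2 the LIP 90 diamond lies above every other library of that day in all genes but Hsp90ab1.

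Hsp90ab1 was the most abundant of the genes in every group. Per kilobase of the canonical transcript, its mean in the CTL group of day 0 was 472 CPM, followed by Hsp90aa1 at 156, Stip1 at 77.4, Ptges3 at 72.9, Fkbp4 at 44.0, Chordc1 at 32.6, Ppid at 22.3, Ahsa1 at 21.9, Ahsa2 at 18.3 and Cdc37 at 17.8. The ranges of the 3 libraries overlapped between Stip1 and Ptges3, between Ppid and Ahsa1 and between Ahsa2 and Cdc37, so the order within each of these pairs is not resolved. The order of the lower genes depends on the length used, since the canonical transcripts of Cdc37 (7851 bases), Chordc1 (5831) and Ahsa1 (4405) are long for their coding lengths of 1137, 993 and 1014 bases. Per kilobase of coding length, Ptges3 (305) stood above Hsp90aa1 (250.2), and Cdc37 (123) above Stip1 (102), while Hsp90ab1 stayed first (588). By the CTL group of day 2, Hsp90ab1 was at 1063 CPM per kilobase of transcript and Hsp90aa1 at 295.

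The question on day 0 is whether CD4+ T cells from mice with periodontitis differed before any stimulation. In 8 of the 10 genes, all LIP libraries lay below all CTL libraries, which was the case for 9.85% of the 14064 genes tested. The contrast is the one the genes were chosen on, so nothing is read from that count. Hsp90aa1, on chr12:110656842-110669166 of GRCm39, had 561, 494 and 596 CPM in CTL 88, 89 and 94 against 248, 239.9 and 237 in LIP 92, 93 and 94. The LIP libraries lay close together and below the lowest CTL library. Its log2 fold change was -1.18 (SE 0.08), and the LIP mean was 43.9% of the CTL mean. Hsp90ab1, on chr17:45878552-45891949, had 1302, 1345 and 1181 CPM in the CTL libraries against 591, 584 and 616 in the LIP libraries. The gap was of like size to that of Hsp90aa1, with a log2 fold change of -1.09 (SE 0.08) and a LIP mean at 46.8% of CTL.

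Stip1, on chr19:6998060-7017394, had the lowest ratio. Its values were 165, 182 and 149 CPM in the CTL libraries against 63.1, 64.0 and 67.2 in the LIP libraries, a log2 fold change of -1.35 (SE 0.08). Ahsa1, on chr12:87313253-87323761, had 92.8, 97.4 and 99.0 CPM in the CTL libraries against 53.3, 51.2 and 56.4 in the LIP libraries (log2 fold change -0.84, SE 0.08). Its relative Ahsa2, on chr11:23427997-23448130, was less abundant, with 53.2 to 56.2 CPM in the CTL libraries against 25.8 to 29.97 in the LIP libraries, and lower by a similar log2 value (-0.99, SE 0.09). The spread within groups was small, and the groups did not overlap in either gene.

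The genes acting with client receptors differed among themselves. Fkbp4, on chr6:128406698-128415665, encodes an immunophilin of steroid receptor complexes and had 92.9 to 107 CPM in the CTL libraries against 54.8 to 59.9 in the LIP libraries (log2 fold change -0.79, SE 0.08). Ptges3, on chr10:127894816-127913141, had 126 to 159 CPM in the CTL libraries against 91.9 to 99.7 in the LIP libraries, the smallest difference of the 8 (-0.61, SE 0.09). Ppid, on chr3:79498649-79512483, encodes another immunophilin, of the cyclophilin type, and had 64.9, 71.4 and 84.0 CPM in the CTL libraries against 83.7, 78.7 and 72.0 in the LIP libraries. Its groups overlapped, and its log2 fold change was 0.09 (SE 0.10). Cdc37, the kinase adaptor, on chr9:21044518-21061278, also overlapped, with 154, 137 and 128 CPM in the CTL libraries against 143, 137 and 139.9 in the LIP libraries (log2 fold change 0.01, SE 0.08). Chordc1, on chr9:18203387-18228746, encodes a zinc-binding co-chaperone and had 166, 185 and 219 CPM in the CTL libraries against 117, 113 and 117 in the LIP libraries (-0.71, SE 0.10).

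Summed over the 10 genes, the CTL libraries reached 2791 ± 19.3 CPM (SD, n = 3) and the LIP libraries 1471 ± 22.2 (SD, n = 3). The median log2 fold change over the genes was -0.81, against 0.01 over all genes tested. Leaving out CTL 94 left the median at -0.78, and the 8 genes ranged from -1.42 to -0.55 without it. A list of 16 immediate early genes, which respond fast to signals and to handling, differed in the same direction on day 0. All 14 of them that passed the filter had a negative log2 fold change, with Fosb (-2.34) and Fos (-1.89) lowest and Egr2 (-0.13) and Egr3 (-0.02) highest, and 6 had all LIP values below all CTL values (9.85% of all genes did). Their sum was 1500 to 2580 CPM in the CTL libraries against 1250 to 1500 in the LIP libraries. The sum of 10 pancreatic acinar genes was 0.601 to 1.18 CPM in the CTL libraries against 0.687 to 25.8 in the LIP libraries. The sum of 8 activation and cell cycle genes was 629 to 797 CPM in the CTL libraries against 550 to 575 in the LIP libraries. In that list Cd69 (-0.90) and Pcna (-0.38) had the lowest log2 fold changes, both with all LIP values below all CTL values. Top2a (0.52) and Cdk1 (0.42) had the highest, with overlapping groups, and Il2ra (0.34) had all LIP values above all CTL values. The part of these lists in the day 0 values was not tested.

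**Figure D2:**
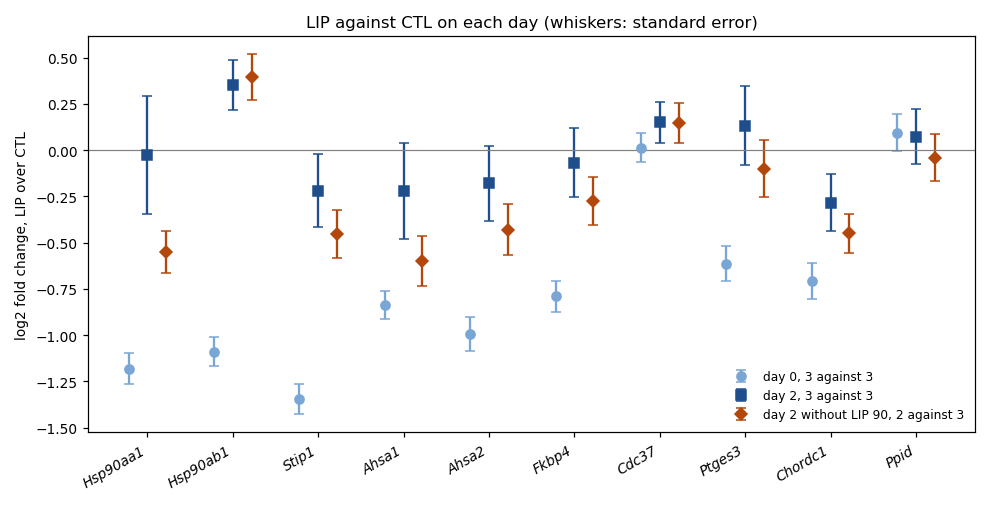
Log2 fold change of LIP over CTL (vertical axis; whiskers are standard errors) for each gene on day 0, on day 2 with 3 libraries against 3, and on day 2 without LIP 90. The day 0 values of 8 genes lie from -1.35 to -0.61, whereas on day 2 the values with all libraries lie from -0.28 (Chordc1) to 0.35 (Hsp90ab1).

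On day 2 the comparison asks whether the groups still differed after culture with stimulation. None of the 10 genes passed the test between LIP and CTL, and neither did any of the 14041 genes tested (edgeR's quasi-likelihood test, adjusted p under 0.05, 0% called), the smallest adjusted p being 0.0568. With an unadjusted p under 0.05 there were 2322 genes (16.5%), among them 1 of the 10, Hsp90ab1. DESeq2 called 489 genes and none of the 10. The sum over the genes was 4975 ± 297 CPM (SD, n = 3) in CTL, and LIP 90, 96 and 97 had 6636, 5418 and 5237. The median log2 fold change over the 10 genes was -0.05, against -0.01 over all genes tested. All LIP libraries lay above all CTL libraries for 2 of the 10, Hsp90ab1 and Cdc37, as for 10.9% of the genes tested, and in none were they all below.

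Hsp90ab1 had 2625, 2998 and 3000.2 CPM in CTL 92, 93 and 97 against 3634, 3792 and 3682 in LIP 90, 96 and 97. The LIP libraries were the closer together, and the lowest of them was above the highest CTL library. The log2 fold change was 0.35 (SE 0.13), with an adjusted p of 0.251 by edgeR's quasi-likelihood test. With all 12 libraries in one fit it was 0.36, with an adjusted p of 0.0426 by the same test, so its call differed between the fits. Cdc37 had 146, 169.75 and 164 CPM in the CTL libraries against 186, 172 and 179 in the LIP libraries. Its groups were narrowly apart, and the log2 fold change was 0.15 (SE 0.11, edgeR adjusted p = 0.537).

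The other 8 genes overlapped between the groups on day 2, with the LIP libraries on both sides of the CTL libraries in 6 of them. Hsp90aa1 had 1014, 1001 and 1112 CPM in the CTL libraries but 1699.8 in LIP 90, 740.0 in LIP 96 and 668 in LIP 97. LIP 90 was thus the highest of the 6 libraries and the other LIP libraries the lowest, and the group means, 1042 ± 60.7 (SD, n = 3) and 1036 ± 576 (SD, n = 3), were alike. Stip1 had 235, 301 and 268 CPM in the CTL libraries against 309.65, 183 and 205 in the LIP libraries. Ahsa1 had 86.0, 95.8 and 113 CPM in the CTL libraries against 127, 62.9 and 65.2 in the LIP libraries. In both genes LIP 90 was again above, and LIP 96 and 97 below, every CTL library. Chordc1 had 121, 114 and 119 CPM in the CTL libraries against 123, 88.7 and 82.4 in the LIP libraries. Its LIP 90 value lay just above the CTL values and the others well below.

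Counted after these values were seen, LIP 90 was the highest of the 6 libraries for 9 of the 10 genes, against 21.6% of the genes tested, the exception being Hsp90ab1. LIP 96 and LIP 97 were both below every CTL library for 6 of the 10 (Hsp90aa1, Stip1, Ahsa1, Ahsa2, Fkbp4 and Chordc1), against 24.7% of the genes tested. Ahsa2 had 32.5 to 39.5 CPM in the CTL libraries and 42.8, 24.9 and 27.7 in LIP 90, 96 and 97. Fkbp4 had 92.6 to 119 CPM in the CTL libraries against 132, 81.9 and 90.6 in the LIP libraries. For Ptges3 and Ppid, LIP 96 and 97 lay within the CTL range, with 177 and 145 against 141 to 194 CPM for Ptges3 and 96.6 and 93.8 against 84.6 to 109 for Ppid.

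**Figure D3:**
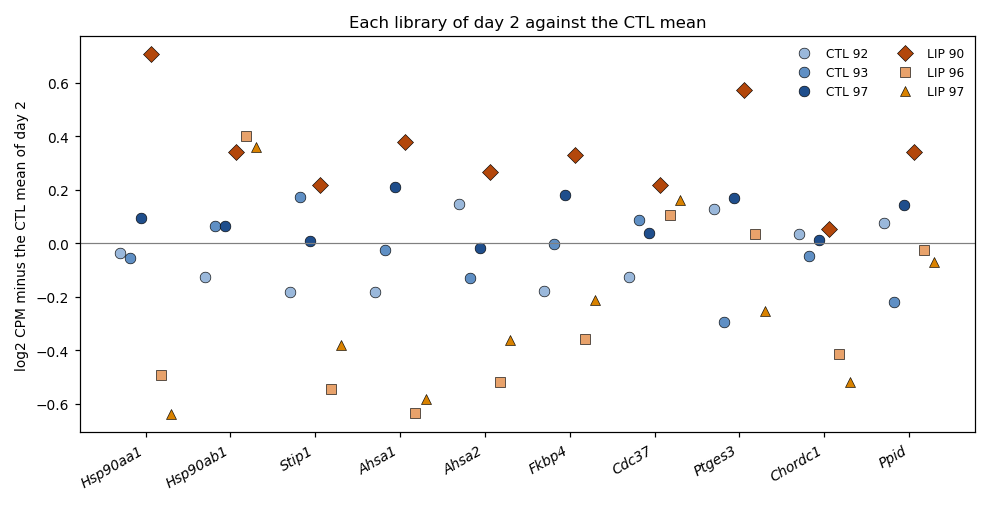
Log2 CPM of each day 2 library minus the mean of the 3 CTL libraries (vertical axis) for each gene. LIP 90 lies highest in every gene but Hsp90ab1, where all 3 LIP libraries lie above the CTL libraries, and LIP 96 and 97 lie below all CTL libraries in 6 genes.

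Without LIP 90, the comparison set LIP 96 and 97 against the 3 CTL libraries, and 895 genes of 14453 were called lower (6.19%) and 1119 higher (7.74%). Of the 10 genes, 4 were then lower in LIP by edgeR's quasi-likelihood test and 0 higher. Hsp90aa1 had a log2 fold change of -0.55 (SE 0.11, adjusted p = 0.0142) and Ahsa1 one of -0.60 (SE 0.13, adjusted p = 0.0187). For Chordc1 it was -0.45 (SE 0.10, adjusted p = 0.0211) and for Stip1 -0.45 (SE 0.13, adjusted p = 0.0479). Hsp90ab1 stayed on the other side of 0, at 0.40 (SE 0.12, adjusted p = 0.0616). Ahsa2 (-0.43) and Fkbp4 (-0.28) had negative values that did not pass the test, with adjusted p-values of 0.0675 and 0.193. The median over the 10 genes was -0.35, against 0.00 over all genes tested (-0.003). LIP 90 was the highest library for 9 of the 10 genes, so leaving it out lowers the LIP values of these genes. Nothing is read from the sign of the 4 calls, and leaving out any other library of day 2 called 0 of the 10.

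Markers of other cells were read beside the day 2 groups. The summed B cell markers overlapped, with 2.64 to 20.6 CPM in the CTL libraries against 0.894 to 33.9 in the LIP libraries, as did the myeloid markers, with 3.63 to 4.75 against 2.77 to 5.33. The sum of 7 genes of NK and cytotoxic cells was 75 to 96.9 CPM in the CTL libraries against 160 to 201 in the LIP libraries, most of it from Gzmb, a granzyme that activated T cells also make, with means of 64.4 and 133 CPM. Klrk1 had means of 5.16 and 19.75 CPM, with the groups apart, and Gzma of 4.63 ± 6.12 and 19.04 ± 23.8 (SD, n = 3), with uneven libraries and overlapping groups. Nkg7 had means of 10.0 and 4.41 CPM and Prf1 of 3.67 and 4.03, and the NK receptors Ncr1 and Klrb1c were near 0 in both groups, at 0.198 and 0.249 CPM in LIP. The sum of 8 activation and cell cycle genes was 6110 to 6300 CPM in the CTL libraries against 5980 to 7010 in the LIP libraries. Their part in the values of the 10 genes was not tested.

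Between the days, the HSP90 forms and Stip1 were higher after culture with stimulation in both groups, and Chordc1 was lower in CTL. No p-value is given for the 10 genes, since the day 0 libraries are those the genes were chosen on and the low LIP values of day 0 raise the LIP change and the mean of both. In the CTL group the median log2 change over the genes was 0.22, in the LIP group 0.75, and as the mean of both 0.45, against -0.02 for the mean over all genes tested. In the fit of that mean, 8 of the genes were past the call threshold (edgeR, adjusted p under 0.05) as higher and 1 as lower, where 40.1% of the 15475 genes tested were higher and 39.9% lower. Nothing is read from these counts. Day, culture and stimulation cannot be told apart.

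Hsp90ab1 had the highest change in CTL, with a log2 value of 1.17 against 2.63 in LIP and a mean of 1.90 (SE 0.07). Hsp90aa1 followed with 0.92 in CTL and 2.099 in LIP, and Stip1 with 0.69 and 1.84. Ppid had 0.43 in each group. For other co-chaperones the CTL change was small. It was 0.03 (SE 0.21) for Ahsa1, 0.10 (SE 0.15) for Fkbp4, 0.25 (SE 0.18) for Ptges3 and 0.20 for Cdc37, and the LIP change was 0.67, 0.84, 1.02 and 0.35. Chordc1 was at -0.68 in CTL and -0.24 (SE 0.14) in LIP, where LIP 90 of day 2 (123 CPM) was above the day 0 libraries (113 to 117) and LIP 96 and 97 were below them. Ahsa2 was at -0.63 in CTL and 0.21 in LIP, where LIP 90 (42.8 CPM) was above the day 0 libraries and LIP 96 and 97 (24.9 and 27.7) were near their mean of 27.6. The mean of both depends on the scaling for the smaller values: with upper-quartile factors, which put the median of all genes at -0.32, Cdc37 was at -0.03 and Ahsa1 at 0.04.

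**Figure D4:**
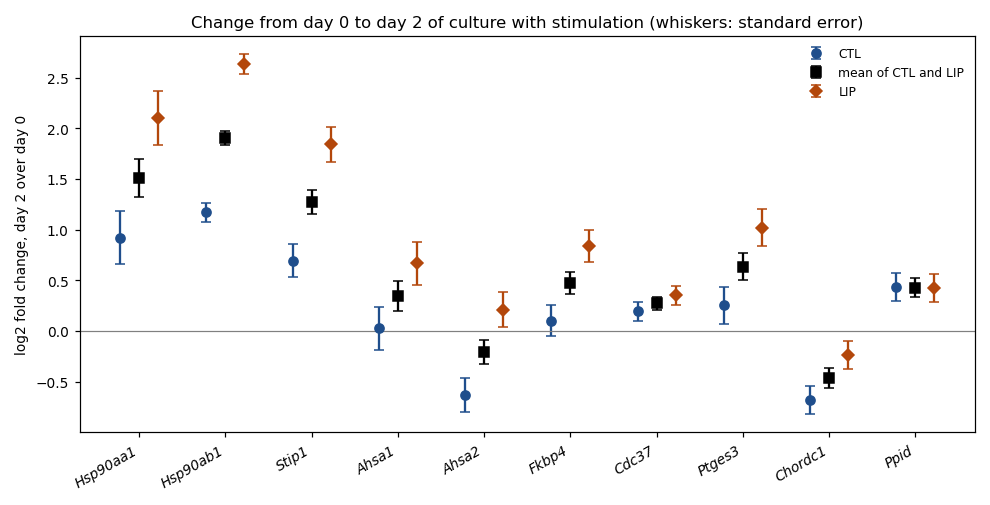
Log2 fold change of day 2 over day 0 (vertical axis; whiskers are standard errors) for each gene within CTL, within LIP and as the mean of both. The LIP value lies above the CTL value in all genes but Ppid, and Hsp90ab1 has the highest values, 1.17 in CTL and 2.63 in LIP.

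As ratios of group means, in the CTL group the mean of Hsp90aa1 was 1.89 times and that of Hsp90ab1 2.25 times its day 0 mean, and in the LIP group 4.286 and 6.201 times. Stip1 was at 1.62 times its day 0 mean in CTL and 3.59 times in LIP. Chordc1 was at 0.623 and 0.845 times its day 0 mean in CTL and LIP, and Ahsa2 at 0.647 and 1.15 times. For Ppid the ratios were alike, 1.35 in both groups. The difference between the groups' log2 changes had a median of 0.75 over the 10 genes, against 0.00 (-0.001) over all genes tested. It was 1.46 (SE 0.13) for Hsp90ab1, 1.18 (SE 0.36) for Hsp90aa1 and 1.15 (SE 0.24) for Stip1. These differences contain the day 0 contrast, and a low LIP value on day 0 raises them, so no test is given for them. Without LIP 90 those of Hsp90aa1, Stip1, Ahsa1, Ahsa2, Fkbp4 and Chordc1 were 0.62, 0.88, 0.23, 0.55, 0.50 and 0.25, against 1.18, 1.15, 0.64, 0.84, 0.74 and 0.44 with it, while that of Hsp90ab1 stayed between 1.403 and 1.496 whichever library was left out.

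The balance between the cytosolic forms was read within each library, where normalisation cancels. There were 43.1, 36.7 and 50.4 Hsp90aa1 counts per 100 Hsp90ab1 counts in CTL 88, 89 and 94, against 42.0, 41.1 and 38.5 in LIP 92, 93 and 94. Although both genes were lower in LIP on day 0, their ratio lay within the CTL range. On day 2 the ratio was 38.6, 33.4 and 37.0 in CTL 92, 93 and 97, but 46.8 in LIP 90, 19.5 in LIP 96 and 18.1 in LIP 97. The latter libraries were the lowest of all 12. The mean log2 ratio was -1.26 on day 0 and -1.72 on day 2, a difference of -0.46 with an exact two-sided permutation p of 0.0844 over 12 libraries. Without LIP 90, the day 2 library with the highest ratio, the difference was -0.58 (exact permutation p = 0.0216). That p-value depends on which library is left out, since leaving out any other gave 0.0693 to 0.169 by the same test. Within the groups the difference was -0.25 in CTL (exact permutation p = 0.3) and -0.67 in LIP (exact permutation p = 0.4). Between LIP and CTL on day 2 it was -0.51 (exact permutation p = 0.4), and these comparisons of 3 against 3 cannot go below 0.1. As a share of the summed level of the 10 genes, Hsp90ab1 made up 54.8% in LIP 90 and 70.0% and 70.3% in LIP 96 and 97.

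**Figure D5:**
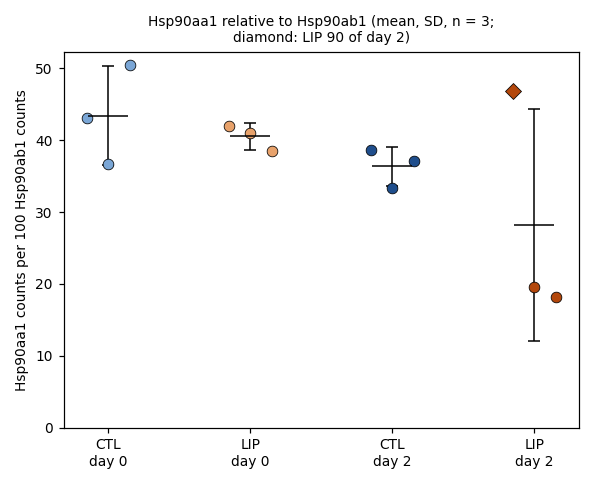
Hsp90aa1 counts per 100 Hsp90ab1 counts (vertical axis from 0) in each library, with the mean and SD of 3 libraries per group. The ratio is 33.4 to 50.4 in every library but LIP 96 and 97 of day 2, which are at 19.5 and 18.1.

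The wider HSP90 system was described from lists. Of 26 other co-chaperones, 16 rose and 6 fell from day 0 to day 2 by edgeR's quasi-likelihood test, beside 40.1% and 39.9% of all genes tested. The highest values were those of Nudcd2 (2.39) and Fnip2 (2.20), and the lowest those of Cdc37l1 (-1.12) and Unc45a (-0.83), a myosin chaperone. On day 0 their median log2 fold change between LIP and CTL was 0.00 (-0.002). All LIP libraries lay below all CTL libraries for 1 of them (9.85% of all genes tested), and above for 1, for which no such share was counted. Nudc (-0.58) and Itgb1bp2 (-0.39) were lowest and Ppp5c and Aarsd1 (0.22 each) highest. On day 2 none of the 26 passed the test, 4 had an unadjusted p under 0.05 (16.5% of all genes did), and the median was -0.03. Sugt1, which acts with HSP90 on immune receptors, had the highest value (0.50), followed by Dnajc7 (0.35), and Itgb1bp2 (-0.77) and Fnip2 (-0.65) the lowest. The HSP90 forms of the organelles, Hsp90b1 of the endoplasmic reticulum and Trap1 of mitochondria, rose from day 0 to day 2 by 1.58 and 0.60 (edgeR adjusted p = 3.94e-08 and 0.000392), and on day 0 had LIP to CTL values of -0.44 and -0.03.

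Chaperones of the HSP70 machine, from which clients come, had lower LIP values on day 0 in all 7 that were tested, each with no overlap of the groups, as for 9.85% of all genes tested. This list, too, holds genes whose day 0 difference was known, so nothing is read from the count. Their median was -0.87, with Hsph1 at -1.62 and Hspa4 at -0.12. The lowest value, -2.67 for Hspa1b, rests on uneven libraries, since its CTL level was 14.2 ± 16.5 CPM (SD, n = 3). On day 2 none of 8 passed the test, 2 had an unadjusted p under 0.05 (16.5% of all genes did), and the median was -0.19. Hspa8, the constitutive HSP70, was at 0.46 and Hspa4 at 0.04, while the inducible Hspa1b and Hspa1a were at -1.25 and -0.54. Between the days, described without a test as for the 10 genes, the median was -0.42, with Hspa4 (1.28) and Hspa8 (1.05) highest and Hspa1b (-1.03) and Dnaja1 (-0.80) lowest. Hsf1, the factor that drives heat shock genes, fell from day 0 to day 2 by 0.69 (edgeR adjusted p = 4.18e-06) and Hsf2 rose by 0.40 (edgeR adjusted p = 0.000634), while their day 0 values between LIP and CTL were -0.13 and -0.05. Hsf3, Hsf4 and Hsf5 did not pass the filter on low counts. Among 18 client kinases the day 0 median was 0.00 (-0.005), with Jak1 (-0.22) and Ripk1 (-0.19) lowest and Cdk6 (0.42) and Chuk (0.21) highest, and 11 rose and 2 fell between the days by the same test, beside 40.1% and 39.9% of all genes tested. Between the days Cdk6 (3.43) and Jak2 (2.60) were highest and Ikbkb (-1.60) and Jak1 (-1.21) lowest. Of 7 client receptors and transcription factors, 3 rose and 4 fell between the days, near those shares, Hif1a (3.36) and Ahr (1.05) with the highest values and Nr3c2 (-2.78) and Nr3c1 (-0.71) with the lowest.

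Likeness to the HSP90 forms was measured as Pearson's r over the 12 libraries between a gene's log2 CPM and the mean log2 CPM of Hsp90aa1 and Hsp90ab1, for 15475 genes. The libraries share day and group, which alone give many genes a high value, so it is a description. Hsp90aa1 and Hsp90ab1 had an r of 0.907 with each other. Outside the 10, high values were those of St13, which encodes another HSP70 co-chaperone (0.986), Haus8 (0.982), Qk (0.978) and Hspe1, the mitochondrial co-chaperonin (0.976). The lowest were Ankrd16 (-0.969), Mppe1 and Arglu1 (-0.961 each), Zfp865 (-0.960) and Uckl1os (-0.959). Of the co-chaperones, Stip1 (0.960) and Ptges3 (0.905) had the highest r over the 12 libraries, which include the day 0 values the genes were chosen on. Over the 6 libraries of day 2 alone, Fkbp4 (0.835) and Ptges3 (0.827) were highest, and Stip1 was at 0.671. Chordc1 (-0.23) and Ahsa2 (0.16) were lowest over the 12 libraries, and over the 6 of day 2 alone their r was 0.549 and 0.651.

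Estimated counts were not whole (tolerance 0.001) in all 12 libraries for Ahsa2, Ptges3 and Chordc1 and in 11 for Hsp90aa1, since reads were shared with other records, and the levels of these genes are uncertain to that extent. The pseudogene record Ptges3-ps itself held 51 to 447 counts per library.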

How the data were processed

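RNA was sequenced after ribosomal RNA depletion with strand kept (DNBSEQ-G400, paired ends). Per the labels and methods, reads were trimmed with Trimmomatic (0.38 in the submitters' processing notes, 0.36 in the methods). They were counted against GRCm39 with RSEM 1.3.0 on Bowtie2, named in both sources, and the methods also name mapping with HISAT2 2.1.0. The authors deposited expected counts per gene for 55414 records, not normalised. The authors also deposited per-million normalised signal values with their own fold changes and p-values for each day; these tables were used for gene symbols only, and 2 of their columns, of libraries not among the samples, were not used.

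Counts were rounded to whole numbers, filtered (filterByExpr), scaled (TMM) and tested with edgeR 4.0.16 (quasi-likelihood test, Benjamini-Hochberg over all genes tested, adjusted p under 0.05), after a check on simulated data. CPM used TMM factors of all 12 libraries. The members and lists were chosen with earlier results of these data known, and the members' change between the days, fitted as the mean over CTL and LIP, is given as a description. Genes named were all 10 members, HSP90 paralogs and heat shock factors, the 2 highest and 2 lowest log2 fold changes of a list in a comparison described for it, and the 5 genes most and least like the HSP90 forms, of which 1 is not reported here. Alternatives were DESeq2 1.42.0, other scalings and filters, 1 fit of all libraries and leaving out each library.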

Additional observations from a re-analysis of the deposited data

Results flagged for a closer look

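Hsp90ab1 stood out because the groups lay apart in opposite directions on the 2 days: the LIP libraries were all below the CTL libraries on day 0 and all above them on day 2. The LIP difference on day 2 minus that on day 0 was 1.46 on the log2 scale (SE 0.13), and it was not tested here, since the genes were chosen on the day 0 part of it. The day 2 part alone was 0.35 (SE 0.13) and did not pass the test (edgeR adjusted p = 0.251).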

How the results depend on the processing

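No paired analysis was possible because the groups compared share fewer than 2 replicate numbers on either day. Leaving out the libraries singly, the genes called between LIP and CTL on day 2 numbered 0 to 2014 and the members called 0 to 4, the highest without LIP 90. The genes called were 489 with DESeq2, 662 without a filter, 1 with at least 10 counts in every library and 775 with all 12 libraries in one fit, which called 1 member, Hsp90ab1. On day 2, values near 0 changed sign when 1 library was left out, Hsp90aa1 from -0.55 to 0.21, Ptges3 from -0.10 to 0.30, Fkbp4 from -0.28 to 0.076 and Ppid from -0.041 to 0.15, and Hsp90aa1 was 0.01 without a filter (0.015). From day 0 to day 2, Cdc37 was -0.03 with upper-quartile factors, which called 6 members. The difference in the log2 ratio of Hsp90aa1 to Hsp90ab1 ranged from -0.58 to -0.31, with an exact permutation p of 0.0216 to 0.169. The causes were not tested. Counts of 3 libraries per group limit what day 2 can show, where LIP 90 differs from LIP 96 and 97.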
